A study of Homo sapiens with 6 samples.

Results

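The genes described here are 46 chaperones, folding enzymes, stress sensors and degradation factors of the endoplasmic reticulum (ER), out of 60669 genes in the deposited table. They were taken by gene symbol from a list of known roles, and each symbol matched 1 gene. The list was chosen with earlier results of these data known. Sequencing of poly(A) RNA gave their transcript levels in LX-2 cells, an established human line derived from activated hepatic stellate cells, the liver cells that secrete scar collagen. One set of cells received an siRNA against ADAMTS12, a secreted metalloprotease (siADAMTS12, 3 libraries), and the control set a commercial negative control siRNA (siCTL, 3 libraries). All 6 libraries came from the unmodified line (genotype WT), grown in medium with fetal calf serum and collected 48 h after lipid transfection. A single ADAMTS12 siRNA sequence was used. The labels do not say whether the 3 libraries of a group were cultured apart. P-values therefore reflect only how far these libraries scatter, which may be technical.

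Secreted and membrane proteins fold in the ER with the help of Hsp70 and Hsp90 chaperones, lectins that hold glycoproteins, enzymes that form disulfide bonds, and prolyl isomerases. When unfolded protein accumulates, the sensors IRE1 (gene ERN1), ATF6 and PERK start the unfolded protein response, which raises transcription of many of these same genes. Proteins that fail to fold are drawn back to the cytosol and destroyed, a route called ER-associated degradation. A stellate cell that secretes collagen depends on this machinery, since procollagen is folded, hydroxylated and assembled there.

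The values are the authors' normalized counts, and they summed to between 30678468 and 31415206 per siADAMTS12 library and between 33576945 and 34072515 per siCTL library. These sums follow the authors' scaling and are not read depths. ADAMTS12 itself stood at 4083, 3449 and 3687 normalized counts in siADAMTS12 replicates 1, 2 and 3, against 13709, 12235 and 13423 in the siCTL replicates, which left 28.5% of the transcript (log2 fold change -1.81 ± 0.07 SE, adjusted p = 4.81e-08). Of 10 stellate cell markers, 9 were above 700 in every library, among them COL1A1 and VIM, while desmin (DES) was at 5 or less. The hepatocyte markers ALB and APOA1 and the leukocyte marker PTPRC were at 7 or less in every library. Of the other cell markers, the bile duct genes KRT7 (226 to 290) and SOX9 (1500 to 1950) and the endothelial gene KDR (50 to 120) were the only ones above 27. Each level below is a normalized count in 1 library, or a mean ± SD of the 3 in a group. The fold change of a gene sets siADAMTS12 over siCTL on the log2(value + 1) scale, with its standard error (SE), and adjusted p-values come from limma fitted over all 15637 genes with a mean of at least 10. In such bulk libraries, fewer cells that express a gene and less RNA per cell cannot be told apart.

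Of the 46 ER genes, 27 fell and 0 rose in siADAMTS12 cells (30 and 0 at an unadjusted p under 0.05). All 46 passed the minimum mean and were tested. Over all genes tested, 15.5% fell and 11.5% rose. Since the list was chosen with earlier results of these data known, this contrast is a description and not a test. The median log2 fold change of the ER genes was -0.30, against 0.00 over all genes tested, and 41 of the 46 estimates were below 0. In 29 of the 46, every siADAMTS12 library lay below every siCTL library, which held for 21.7% of all genes tested. The largest fall was that of HSP90B1, to 56.7% of its siCTL mean. Together the ER genes made up 0.993, 0.903 and 0.947% of all normalized counts in siADAMTS12 replicates 1, 2 and 3, against 1.19, 1.11 and 1.2% in the siCTL replicates, and the groups did not overlap.

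**Figure D1:**
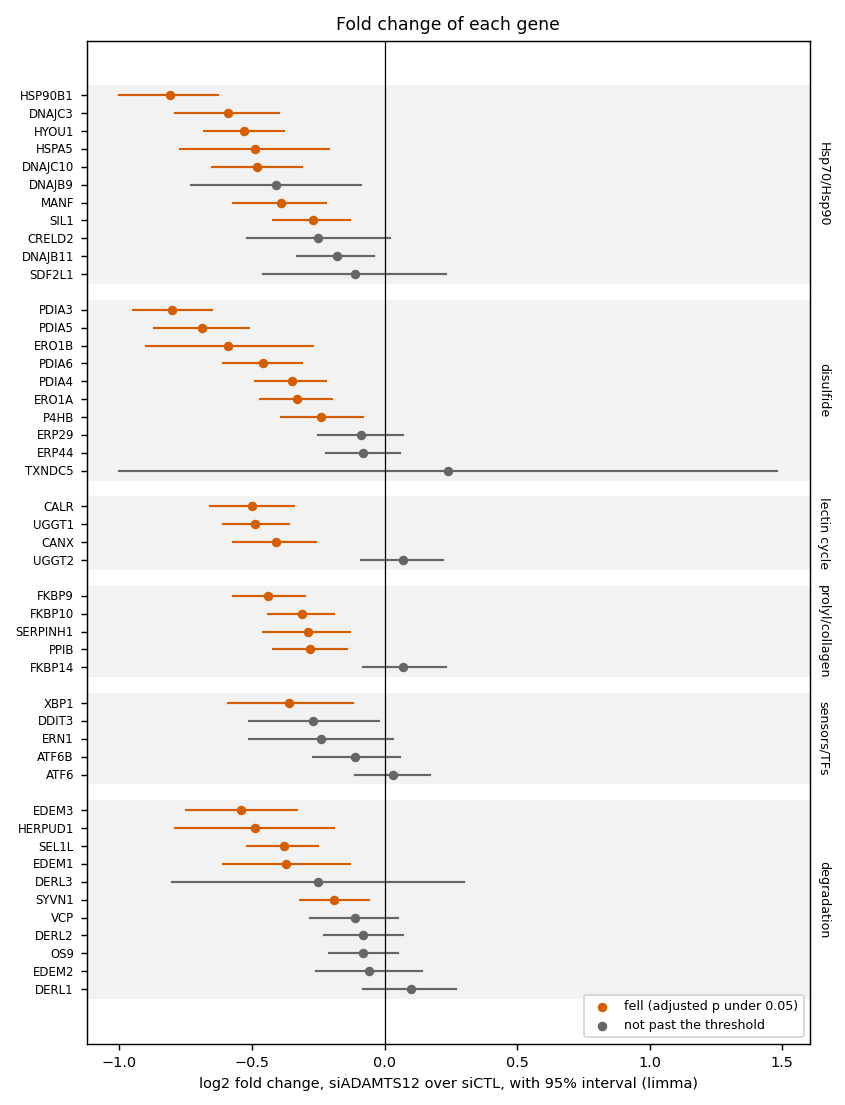
Log2 fold change of each of the 46 ER genes (x axis, siADAMTS12 over siCTL) with its 95% interval from limma, in 6 role groups. The 27 genes that fell are in orange, from -0.81 for HSP90B1 to -0.19 for SYVN1. The intervals of ATF6, UGGT2, FKBP14 and DERL1, among other genes that did not pass, span 0.

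Many of the ER genes are abundant, and the share of genes that fell was larger at high levels. Among genes with a mean of at least 500, 21.9% fell, and 26 of the 43 ER genes above that level did so. Among genes with a mean of at least 10000, 35.9% fell, with a median log2 fold change of -0.14, and of the 11 ER genes in that range 10 fell, with a median of -0.41. When the columns were rescaled to equal sums, the median of all genes moved by 0.13 on the log2 scale, 18 of the 46 ER genes fell (9.89% of all genes did) and 1 rose, FKBP14. After quantile normalization 21 fell (13.3% of all genes did). With the replicate number as a term in the model, 31 fell, against 19.6% of all genes.

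**Figure D2:**
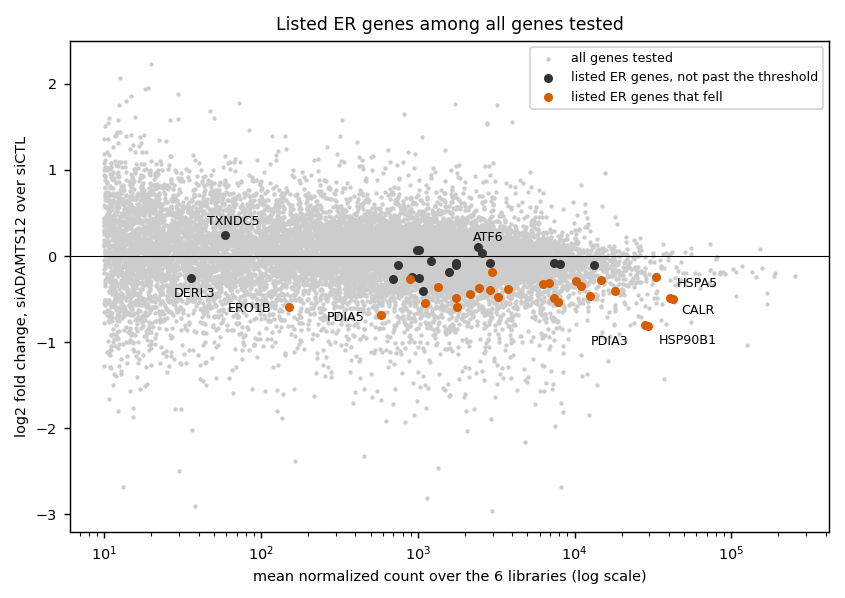
Mean normalized count over the 6 libraries (x axis, log scale) against log2 fold change (y axis, siADAMTS12 over siCTL) for all 15637 genes tested in grey and the 46 ER genes as larger points, orange for the 27 that fell. HSP90B1 and PDIA3 lie lowest among the ER genes, near -0.8, and TXNDC5 and DERL3 have the lowest levels.

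Some of these genes have in their promoter a sequence known from ER chaperone genes, so the choice of genes by role is not independent of it. Transcription of ER chaperones is known to run through the ER stress response element, in which the factor NF-Y binds CCAAT and ATF6 or XBP1 binds CCACG, with 9 bases between them. This motif (CCAAT, any 9 bases, CCACG, searched on both strands) was looked for in RefSeq promoters of build GRCh38.p14, from 250 bases before to 50 bases after each gene's start. Promoters were at hand for 41 of the 46 ER genes. The motif was in 8 of these 41 (19.5%), against 25 of 27305 genes in all (0.0916%), the 8 included. Since the genes were chosen by known role, this share describes the list and is not a result of the siRNA comparison. Matches are shown on the strand where CCAAT reads first, with the CCAAT and CCACG arms in capitals, because they are what these 8 genes have in common.
HSPA5, chr9:125241391-125241409, minus strand: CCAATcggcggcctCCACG
HSP90B1, chr12:103930216-103930234, plus strand: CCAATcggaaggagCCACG
HSP90B1, chr12:103930321-103930339, minus strand: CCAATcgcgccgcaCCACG
CALR, chr19:12938384-12938402, minus strand: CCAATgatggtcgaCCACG
CANX, chr5:179698778-179698796, plus strand: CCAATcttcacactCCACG
PDIA6, chr2:10812853-10812871, minus strand: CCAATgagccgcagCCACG
XBP1, chr22:28800603-28800621, minus strand: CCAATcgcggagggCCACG
CRELD2, chr22:49918554-49918572, minus strand: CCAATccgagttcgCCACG
ERO1B, chr1:236282183-236282201, plus strand: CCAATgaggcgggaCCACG

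Of the 8 genes with the motif, 7 fell, all but CRELD2, and their median log2 fold change was -0.47. Of the 33 searched without it, 18 fell, with a median of -0.27. Among those with the motif, HSPA5, HSP90B1, CALR, CANX and PDIA6 had means of at least 10000. At that level 10 of the 11 ER genes and 35.9% of all genes fell. Motif and level were not separated, and the difference was not tested. The CCAAT arm alone was in 33 of the 41 promoters (80.5%, against 39.7% of all genes) and the CCACG arm alone in 28 (68.3%, against 42.1%). A match is a description of these letters and not evidence of binding. HSP90B1 held 2 matches in its window. That window (GRCh38.p14, chr12:103930160-103930459, plus strand) is printed to show both matches, which lie 185 and 80 bases before the start and face in opposite directions.
HSP90B1 promoter: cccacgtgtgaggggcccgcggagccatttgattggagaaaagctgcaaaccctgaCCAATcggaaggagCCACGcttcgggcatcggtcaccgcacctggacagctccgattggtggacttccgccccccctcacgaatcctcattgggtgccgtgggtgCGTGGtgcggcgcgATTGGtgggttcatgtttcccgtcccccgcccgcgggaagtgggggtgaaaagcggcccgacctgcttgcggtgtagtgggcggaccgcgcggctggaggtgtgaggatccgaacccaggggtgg

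The Hsp70 and Hsp90 chaperones of the ER and their partners were lower in siADAMTS12 cells. Of these 11 genes, 7 fell (63.6%, against 15.5% of all genes tested) and 0 rose. All 11 estimates were below 0 (median log2 fold change -0.41). HSPA5 (ENSG00000044574, chr9:125234853-125241330, minus strand, GRCh38) encodes BiP, the ER Hsp70 that binds nascent chains and holds the stress sensors inactive. It stood at 36880, 28116 and 35994 in siADAMTS12 replicates 1, 2 and 3, against 52250, 39017 and 50542 in the siCTL replicates. Every siADAMTS12 library lay below every siCTL library, and replicate 2 was the lowest of both groups. The fold change was -0.49 ± 0.13 SE (adjusted p = 0.0142). Taken number by number, the log2 ratios of the 3 pairs were -0.50, -0.47 and -0.49, and with the replicate number in the model the adjusted p was 5.86e-05. The call was lost after quantile normalization, at -0.24 with the highest adjusted p of its alternatives, 0.183, and also with columns rescaled to equal sums (0.0517), with no intensity trend (0.0792), and without siCTL replicate 1 or siCTL replicate 3 (0.0531 and 0.0646).

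HSP90B1 (ENSG00000166598, chr12:103930107-103953645, plus strand) encodes GRP94, the Hsp90 of the ER, whose clients include integrins and insulin-like growth factors. Its level was 22617, 20202 and 21198 in siADAMTS12 cells, against 39128, 33427 and 40315 in siCTL cells. The groups were far apart relative to their spread, with a fold change of -0.81 ± 0.08 SE (adjusted p = 2.93e-05). HYOU1, the large Hsp110-type partner that exchanges nucleotide on BiP, stood at 6547, 6245 and 6436 in siADAMTS12 cells, against 9288, 8481 and 10037 in siCTL cells, without overlap (-0.53 ± 0.07 SE, adjusted p = 0.000182). SIL1, the other exchange factor, fell less, to 805 ± 14.2 in siADAMTS12 cells against 971 ± 13.6 in siCTL cells (-0.27 ± 0.07 SE, adjusted p = 0.0103, and 0.104 with columns rescaled to equal sums, the highest of its alternatives from 0.00691).

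The J-domain cochaperones, which hand substrates to BiP, were split by the test. DNAJC3 (p58IPK, also known as an inhibitor of PERK) stood at 1499, 1268 and 1465 in siADAMTS12 cells, against 2280, 1884 and 2229 in siCTL cells, with no overlap (-0.59 ± 0.09 SE, adjusted p = 0.000526). DNAJC10 (ERdj5), a J-domain protein that reduces disulfides, fell to 2718 ± 136 in siADAMTS12 cells against 3808 ± 367 in siCTL cells (adjusted p = 0.000768). DNAJB9 (ERdj4), which represses IRE1 through BiP, and DNAJB11 (ERdj3) did not pass, with log2 fold changes of -0.41 and -0.18 (adjusted p = 0.0574 and 0.0646), and both passed with the replicate number in the model (0.000767 and 0.0462). DNAJB9 varied widely within each group, from 756 to 1071 in siADAMTS12 cells and from 972 to 1389 in siCTL cells, and its pairs had log2 ratios of -0.37, -0.36 and -0.49.

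Of the small secreted or luminal stress proteins, 1 of 3 passed the test. MANF, a secreted factor that binds BiP, fell to 2516 ± 245 in siADAMTS12 cells against 3302 ± 201 in siCTL cells (-0.39 ± 0.08 SE, adjusted p = 0.00319). CRELD2 did not pass, at 969, 737 and 1098 in siADAMTS12 cells against 1162, 1085 and 1053 in siCTL cells (95% interval of the log2 fold change -0.52 to 0.02), and it did without siADAMTS12 replicate 3 (adjusted p = 0.0417, with alternatives up to 0.489). SDF2L1, a partner of DNAJB11, had a log2 fold change of -0.11 with an interval from -0.46 to 0.23. Its value in siADAMTS12 replicate 2, 528, was well below the 845 and 813 of the other two, and without that library its estimate was above 0.

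The disulfide enzymes held the second largest fall of all 46 genes. Of 10 genes, 7 fell (70.0%, against 15.5% of all genes tested) and 0 rose (median log2 fold change -0.34). PDIA3 (ENSG00000167004, chr15:43746392-43773279, plus strand) encodes ERp57, the isomerase that calnexin and calreticulin bring to glycoproteins. It stood at 19706, 20844 and 21046 in siADAMTS12 cells, against 33512, 35622 and 38260 in siCTL cells. No siADAMTS12 library came near the siCTL range, and the fold change was -0.80 ± 0.07 SE (adjusted p = 9.88e-06). PDIA5, a low-level family member, stood at 425, 451 and 468 in siADAMTS12 cells, against 711, 693 and 770 in siCTL cells (-0.69 ± 0.08 SE, adjusted p = 8.77e-05).

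P4HB encodes the classical protein disulfide isomerase, which is also the beta subunit of collagen prolyl 4-hydroxylase. Its level was 32788, 28609 and 30345 in siADAMTS12 cells, against 37071, 35412 and 35537 in siCTL cells. The groups did not overlap, but the fold change was only -0.24 ± 0.07 SE (adjusted p = 0.0286) and turned to 0.04 after quantile normalization. The call was also lost on leaving out siADAMTS12 replicate 2 or 3 or any 1 of the siCTL replicates, with adjusted p from 0.0574 to 0.0928 (alternatives from 0.00532 to 0.708). PDIA6, which attenuates IRE1 and PERK signalling, fell to 10506 ± 858 in siADAMTS12 cells against 14428 ± 436 in siCTL cells. PDIA4 (ERp72) fell to 9596 ± 392 in siADAMTS12 cells against 12274 ± 629 in siCTL cells.

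Both ER oxidases, which pass oxidizing power to the isomerases, fell. ERO1A was at 5552 ± 89.1 in siADAMTS12 cells against 7004 ± 425 in siCTL cells (adjusted p = 0.00197). ERO1B, present at a far lower level, stood at 133, 102 and 127 in siADAMTS12 cells, against 203, 170 and 171 in siCTL cells (-0.59 ± 0.14 SE, adjusted p = 0.0104). ERP29, a chaperone of the family without isomerase activity, and ERP44, which retains ERO1 in the early secretory pathway, did not pass (95% intervals -0.25 to 0.07 and -0.22 to 0.06).

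TXNDC5, an isomerase known to promote fibrosis, was listed at 40, 23 and 149 in siADAMTS12 cells and at 26, 75 and 43 in siCTL cells, with the widest interval of the 46 genes (-1.0 to 1.48). The annotation (GENCODE 29) holds a readthrough gene, BLOC1S5-TXNDC5, that overlaps TXNDC5 on the same strand, and that gene was listed at 0 in every library. How the authors' counting treated reads that 2 genes share is not given in the sources used here, so the TXNDC5 level is uncertain. In all, 18 of the 46 genes overlap another protein-coding gene on either strand. Of these 18, 9 fell, and of the 28 without such an overlap, 18 fell.

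**Figure D3:**
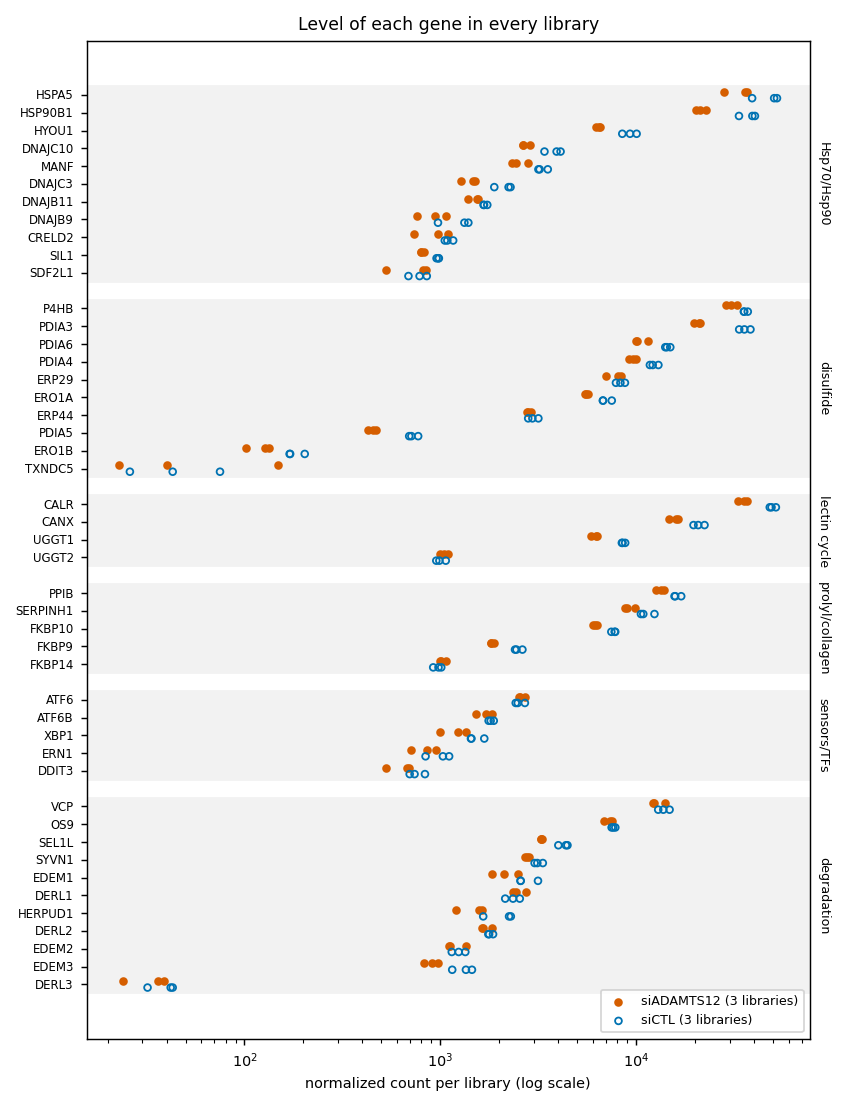
Normalized count of each of the 46 ER genes in every library (x axis, log scale), with filled orange points for the 3 siADAMTS12 libraries and open blue points for the 3 siCTL libraries, in 6 role groups. HSP90B1, PDIA3, CALR and UGGT1 show groups that are clearly apart, and TXNDC5 shows a spread from 23 to 149.

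The lectin cycle, which holds glycoproteins until they are folded, fell in 3 of its 4 genes (75.0%, against 15.5% of all genes tested). CALR (ENSG00000179218, chr19:12938578-12944489, plus strand), the soluble lectin calreticulin, stood at 36787, 35406 and 32987 in siADAMTS12 cells, against 48006, 48999 and 51583 in siCTL cells (-0.50 ± 0.07 SE, adjusted p = 0.00036). CANX, its membrane-bound relative calnexin, stood at 15872, 16380 and 14699 in siADAMTS12 cells, against 20700, 19590 and 22295 in siCTL cells (-0.41 ± 0.07 SE, adjusted p = 0.00123). Neither gene's groups overlapped. UGGT1, the folding sensor that puts glucose back on misfolded glycoproteins, fell to 6123 ± 213 in siADAMTS12 cells against 8573 ± 177 in siCTL cells (-0.49 ± 0.06 SE, adjusted p = 8.22e-05). Its paralogue UGGT2 was at 1048 ± 47.0 in siADAMTS12 cells and 1002 ± 57.3 in siCTL cells, with an interval from -0.09 to 0.22. The difference between the 2 paralogues was not tested.

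Per kilobase of transcript, the order of the most abundant genes was CALR, PPIB, P4HB, HSP90B1 and HSPA5 in siCTL cells. Their levels per kilobase were 18424, 12266, 11748, 7466 and 8614 in siADAMTS12 cells, against 26027, 14930, 13833, 13164 and 12096 in siCTL cells. Per kilobase, HSP90B1 thus stood above HSPA5 in siCTL cells and below it in siADAMTS12 cells. On this scale HSP90B1 was below HSPA5 in each of the 3 siADAMTS12 libraries and above it in each of the 3 siCTL libraries, although their ranges over libraries overlapped in both groups. This order rests on the transcript lengths taken, 2858 bases for HSP90B1 and 3908 for HSPA5. Before division by length, HSPA5 lay above HSP90B1 in every library. The order of neighbours changed between libraries for PPIB and P4HB in siADAMTS12 cells and for P4HB and HSP90B1 in siCTL cells, so these are not separated there. CALR lay above the others in every library.

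Prolyl isomerases and the collagen chaperone fell in 4 of 5 genes (80.0%, against 15.5% of all genes tested). PPIB (cyclophilin B), which works with prolyl 3-hydroxylase on procollagen, stood at 13779, 13413 and 12587 in siADAMTS12 cells, against 15796, 15674 and 16949 in siCTL cells (-0.28 ± 0.06 SE, adjusted p = 0.00668). SERPINH1 (HSP47), the chaperone dedicated to the collagen triple helix, was at 9196 ± 573 in siADAMTS12 cells against 11265 ± 976 in siCTL cells (-0.29 ± 0.07 SE, adjusted p = 0.014). FKBP10 (FKBP65), needed for cross-linked collagen, fell to 6169 ± 152 in siADAMTS12 cells against 7674 ± 189 in siCTL cells (-0.31 ± 0.06 SE, adjusted p = 0.00155). FKBP9 fell furthest in this group (-0.44 ± 0.06 SE, adjusted p = 0.000302), whereas FKBP14, a collagen-linked relative, was at 1020 ± 37.8 in siADAMTS12 cells and 969 ± 46.2 in siCTL cells (adjusted p = 0.472). SERPINH1 and PPIB no longer passed after quantile normalization (0.152 and 0.174, the highest of their alternatives, from 0.00112 and 0.00405). SERPINH1 did not pass without siADAMTS12 replicate 3 or siCTL replicate 2 (0.0591 and 0.055).

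Of the 5 sensors and transcription factors, 1 fell (20.0%) and 0 rose. That share is near the 15.5% of all genes tested and the 21.9% of those with a mean of at least 500. With the replicate number in the model 3 of the 5 fell, against 19.6% of all genes. XBP1, the factor that IRE1 activates by splicing its mRNA, stood at 1231, 992 and 1345 in siADAMTS12 cells, against 1675, 1440 and 1432 in siCTL cells (-0.36 ± 0.11 SE, adjusted p = 0.0297). The gene-level counts do not separate spliced from unspliced XBP1. Its groups did not overlap, yet it lost its call without any 1 of the siCTL libraries or without siADAMTS12 replicate 2 (adjusted p from 0.0504 to 0.103, alternatives from 0.00956 to 0.142). ATF6, the sensor that is cut in the Golgi and moves to the nucleus, stood at 2536, 2715 and 2517 in siADAMTS12 cells, against 2482, 2424 and 2699 in siCTL cells, with overlapping groups and an interval from -0.11 to 0.17. Its relative ATF6B stood at 1709, 1834 and 1524 in siADAMTS12 cells, against 1805, 1763 and 1872 in siCTL cells (interval -0.27 to 0.06).

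ERN1, which encodes IRE1 alpha, stood at 858, 711 and 953 in siADAMTS12 cells, against 1030, 840 and 1108 in siCTL cells. The groups overlapped and the test did not pass (-0.24 ± 0.12 SE, adjusted p = 0.17), but the 3 pairs gave -0.26, -0.24 and -0.22, and with the replicate number in the model the adjusted p was 0.0121. DDIT3 (CHOP), the pro-apoptotic factor induced through PERK and ATF4, stood at 692, 529 and 674 in siADAMTS12 cells, against 834, 697 and 738 in siCTL cells (-0.27 ± 0.11 SE, adjusted p = 0.101, and 0.0201 with the replicate number in the model). None of DDIT3, HSPA5 and DNAJB9, whose transcripts are commonly used as signs of ER stress, rose.

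In ER-associated degradation, 5 of 11 genes fell (45.5%, against 15.5% of all genes tested) and 0 rose (median log2 fold change -0.19). EDEM3, a lectin-like mannosidase that marks glycoproteins for disposal, stood at 970, 826 and 909 in siADAMTS12 cells, against 1449, 1149 and 1350 in siCTL cells (-0.54 ± 0.09 SE, adjusted p = 0.00145). EDEM1 fell too, at 2143 ± 322 in siADAMTS12 cells against 2761 ± 336 in siCTL cells, but lost its call without siADAMTS12 replicate 2, siADAMTS12 replicate 3 or siCTL replicate 1 (adjusted p = 0.0278, alternatives from 0.000917 to 0.126). EDEM2 had an interval from -0.26 to 0.14.

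The membrane ligase complex at the centre of this pathway fell in part. Its scaffold SEL1L was at 3276 ± 33.9 in siADAMTS12 cells against 4274 ± 241 in siCTL cells (-0.38 ± 0.06 SE, adjusted p = 0.000749). The ubiquitin ligase SYVN1 (HRD1) fell least of all genes called (-0.19 ± 0.06 SE, adjusted p = 0.0378) and passed with all libraries and without siCTL replicate 2, but with no other single library left out (alternatives from 0.013 to 0.42). HERPUD1, a stress-induced partner of this complex, was at 1577, 1196 and 1624 in siADAMTS12 cells against 2288, 1654 and 2241 in siCTL cells (-0.49 ± 0.14 SE, adjusted p = 0.0204, and 0.000109 with the replicate number in the model). HERPUD1 did not pass without siADAMTS12 replicate 2, siCTL replicate 1 or siCTL replicate 3 (0.0599 to 0.087, with alternatives up to 0.105).

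VCP, the derlins and the lectin OS9 did not pass. VCP (p97), the ATPase that pulls substrates into the cytosol, stood at 13976, 12150 and 12276 in siADAMTS12 cells, against 14786, 13737 and 12938 in siCTL cells, with overlapping groups (interval -0.28 to 0.05). VCP was the only one of the 11 ER genes with a mean of at least 10000 that did not fall. The derlins DERL1 and DERL2 and the lectin OS9 had log2 fold changes of 0.10, -0.08 and -0.08, with no bound of their intervals beyond -0.23 or 0.27. DERL3 was near the minimum level, at 33.0 ± 7.94 in siADAMTS12 cells and 39.0 ± 6.08 in siCTL cells.

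The ER genes also varied together between libraries of the same group. In replicate 2, 17 of the 46 genes had the lowest value of their group in both siADAMTS12 and siCTL cells (37.0%, against 13.7% of all genes tested). In replicates 1 and 3 the number was 2 each (4.35%, against 16.8 and 11.7% of all genes tested). The 17 were HSPA5, HERPUD1, DNAJB9, DNAJC3, DDIT3, HSP90B1, HYOU1, PDIA4, PDIA6 and SYVN1, ERN1, DNAJC10, EDEM3, ERO1B, P4HB, SEL1L and UGGT2. On the log2 scale, HSPA5 in replicate 2 deviated by -0.249 from the siADAMTS12 mean and by -0.265 from the siCTL mean. SERPINH1 deviated the other way, by 0.101 from the siADAMTS12 mean and by 0.140 from the siCTL mean. Across the 43 ER genes with a mean of at least 500, deviations of same-numbered libraries correlated at 0.783, 0.470 and 0.0501 for replicates 1, 2 and 3. These genes share their libraries and are not independent. What the number stands for is not given, and the source of the shared deviation was not tested. Without both replicate 2 libraries, an alternative chosen after seeing the data, 24 of the 46 genes fell and 0 rose, with a median of -0.28.

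**Figure D4:**
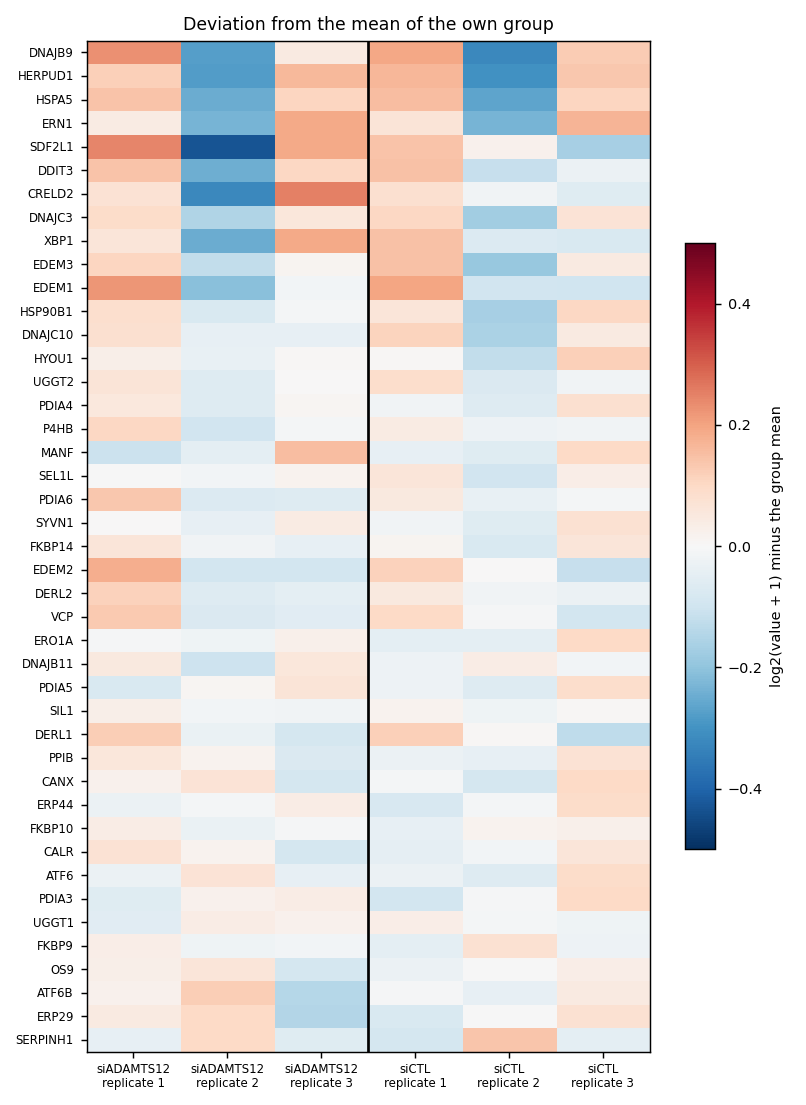
Deviation of each library from the mean of its own group on the log2(value + 1) scale (colour, blue below and red above), for the 43 ER genes with a mean of at least 500. The 3 siADAMTS12 libraries are on the left and the 3 siCTL libraries on the right, and genes are ordered by their deviation in replicate 2. HSPA5 and HERPUD1 are blue in replicate 2 of both groups, and SERPINH1 at the bottom is not.

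A short siRNA can lower other transcripts when bases 2 to 8 of its guide strand, the seed, pair with their 3' UTRs. The guide of siADAMTS12 is printed below with this seed in capitals, derived as the complement of the sense strand in the labels. The match GAGGGAA was searched in 3' UTRs of GENCODE 29.
siADAMTS12 guide: uUUCCCUCcaaacuuuggc

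Of the 46 ER genes, 9 held the match (19.6%, against 15.6% of 12606 genes tested with a 3' UTR of at least 30 bases). These were HSP90B1, DNAJC3, DNAJC10, UGGT1, FKBP10, SERPINH1, ERN1, ERP44 and TXNDC5, and 6 of the 9 fell. Of the 37 ER genes without it, 21 fell, with a median log2 fold change of -0.28. Over those 12606 genes, 35.9% of the 1970 with the match and 15.0% of the 10636 without it fell. PDIA3, CALR, PDIA5, HYOU1 and HSPA5 fell and did not hold the 7-base match, although PDIA3 held the shorter match to bases 2 to 7. The shorter match or a longer one was in 47.8% of the ER genes and 41.4% of those 12606 genes. Of the 13 ER genes with only the shorter match, 7 fell, and of the 24 with neither, 14 fell. The other siRNA strand and coding sequences were not searched. Whether either match contributed to the fall of any gene was not tested. The sites in HSP90B1 and DNAJC3, the largest falls among the 9, are given on the transcript strand (GRCh38), with the match in capitals.
HSP90B1, chr12:103947684-103947712, plus strand: tcctgtgtggaGAGGGAAtgtgaaattta
DNAJC3, chr13:95791264-95791292, plus strand: tatgctgtctgGAGGGAAgtggtctgagg
DNAJC3, chr13:95793197-95793225, plus strand: ccagtgccatgGAGGGAAatgaattctct

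Neighbouring steps of the secretory pathway, were covered by lists of 119 other genes, of which 115 were tested. Of these 115, 23 fell (20.0%) and 6 rose, with a median log2 fold change of -0.07, while 15.5% of all genes tested fell and 11.5% rose. Among genes with a mean of at least 500, where most of the related genes lie, 21.9% fell, so their share is near that level. With the replicate number in the model, 37 fell and 6 rose, against 19.6% of all genes that fell. By list, the share that fell was 37.5% (translocon), 33.3% (degradation), 28.0% (folding enzymes), 15.4% (oligosaccharyltransferase), 10.5% (response regulators) and 0.0% (cytosolic and mitochondrial chaperones). Of 16 translocon and signal sequence genes, 6 fell and 0 rose (8 and 0 with the replicate number in the model). SEC62, a subunit for post-translational entry, stood at 2612, 2714 and 2578 in siADAMTS12 cells, against 3956, 3896 and 4081 in siCTL cells (-0.59 ± 0.06 SE, adjusted p = 1.73e-05). The signal peptidase subunit SPCS3 and the translocon-associated SSR3 were at -0.52 and -0.38. SSR3 lost its call after quantile normalization (adjusted p = 0.164) and with no intensity trend (0.0541). Of 25 other ER folding enzymes tested, 7 fell and 1 rose (11 and 1 with the replicate number in the model), among them the membrane isomerase TMX3, at 1821, 1567 and 1713 in siADAMTS12 cells against 5173, 4394 and 4684 in siCTL cells (-1.48 ± 0.08 SE, adjusted p = 2.03e-07). This was a larger fall than that of any of the 46. The cochaperone DNAJB14 and the isomerase TXNDC11 were at -0.83 and -0.39.

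Of 18 other degradation genes, 6 fell and 2 rose (7 and 2 with the replicate number in the model). FAM8A1, a cofactor of HRD1, stood at 265, 285 and 276 in siADAMTS12 cells, against 826, 905 and 914 in siCTL cells (-1.67 ± 0.08 SE, adjusted p = 1.34e-07). FAF2, which brings VCP to the membrane, was at -1.34, and the conjugating enzyme UBE2J1 at -0.81. FAM8A1, FAF2, DNAJB14 and SEC62 held the 7-base seed match. Of the other called genes named from the related lists, TMX3, UBE2J1, SPCS3, SSR3, CREB3L2 and STT3A fell and held only the shorter match to bases 2 to 7. HSPA4L, which rose, held only the shorter match too. TXNDC11, CREB3L1, STT3B, MOGS and TRAP1 held neither. The shorter match or a longer one was in 41.4% of genes tested.

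Of 19 other regulators of the unfolded protein response, 2 fell and 0 rose, the ER-bound factors CREB3L1 (-0.59 ± 0.13 SE, adjusted p = 0.00729) and CREB3L2 (-0.38 ± 0.06 SE, adjusted p = 0.000486). CREB3L1 lost its call with no intensity trend (adjusted p = 0.0647). With the replicate number in the model 6 of the 19 fell, with the addition of EIF2AK3, TRIB3, MBTPS2 and TMBIM6. EIF2AK3, which encodes PERK, stood at 902, 912 and 931 in siADAMTS12 cells, against 1059, 998 and 1099 in siCTL cells, without overlap (-0.20 ± 0.07 SE, adjusted p = 0.0503, and 0.029 with the replicate number in the model). Of 13 oligosaccharyltransferase and glucose-trimming genes, 2 fell, the catalytic subunits STT3A and STT3B at -0.19 and -0.29, and 1 rose, the glucosidase MOGS at 0.18 (4 and 1 with the replicate number in the model). STT3A passed in 5 and MOGS in 7 of the 14 alternatives, with adjusted p up to 0.405 and 0.116. STT3B lost its call with columns rescaled to equal sums (0.0656) and after quantile normalization (0.109). With a single library left out, STT3A passed only without siCTL replicate 2 and MOGS only without siADAMTS12 replicate 2. Of 24 cytosolic and mitochondrial chaperones tested, 0 fell and 2 rose, HSPA4L at 0.56 ± 0.10 SE (adjusted p = 0.00117) and TRAP1 at 0.26 ± 0.06 SE (adjusted p = 0.00632), with a median of -0.05. At an unadjusted p under 0.05, 1 of the 24 was lower, HSPA8, the constitutive cytosolic Hsp70. It was at 78016 ± 4938 in siADAMTS12 cells against 90450 ± 5564 in siCTL cells (-0.21 ± 0.08 SE, adjusted p = 0.0811, and 0.0276 with the replicate number in the model). These lists too were chosen with earlier results of these data known, and their difference from the 46 ER genes was not tested.

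**Figure D5:**
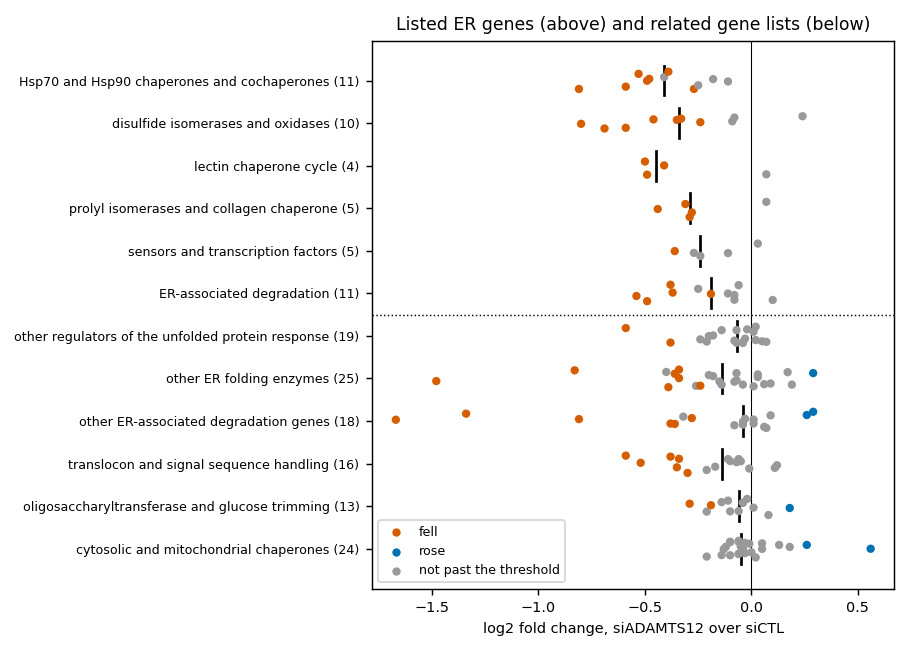
Log2 fold change (x axis, siADAMTS12 over siCTL) of each gene in the 6 role groups of ER genes, above the dotted line, and in 6 related lists, below it, with the number tested in brackets and a black bar at each median. Medians of the role groups run from -0.45 to -0.19 and those of the related lists from -0.14 to -0.04.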

How the data were processed

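The deposited table holds a score rather than raw counts: normalized counts written by the authors as whole numbers, with no scaling factors given. STAR, HTSeq, DESeq2 and the build GRCh38 are named in the submitters' processing notes, without versions. Which annotation was counted, and with which strand setting, is not given in the sources used here. Per the labels' protocols, stranded poly(A) libraries were made. Read depth is unknown, which bars counting intervals and count models.

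A minimum mean of 10 left 15637 of 60669 genes. These were analysed as log2(value + 1), which understates the change of low genes. limma 3.58.1 in R 4.3.3 was fitted over all genes kept with group as the only term (lmFit, eBayes with an intensity trend). P-values are 2-sided, adjusted by Benjamini-Hochberg over all genes tested, with a threshold of 0.05. Simulated data served to test the fit. In all, 13 other settings changed the pseudocount (8), the minimum mean (none or 50), the scaling, the trend, the replicate term, or left out 1 library. Another, leaving out both replicate 2 libraries, was added after seeing the data.

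Across all genes, deviations from the group mean were correlated between libraries of the same number, at 0.367, 0.135 and 0.133 for replicates 1, 2 and 3, all above the 0.1 set for this check. A model with replicate number as a block (pairing the libraries) was therefore run, and its values stand beside the ER genes and the list counts that it changed.

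The ER genes, role groups and related lists were chosen with earlier results of these data known. Values in every library were given for the 8 ER genes with the highest mean and the 8 largest changes past the threshold. They were also given for every ER gene that rose and the 5 sensors and transcription factors. CRELD2, TXNDC5 and HERPUD1, and EIF2AK3 from the related lists, were added after their values were seen. So were the ranges of DNAJB9, the siADAMTS12 values of SDF2L1 and the group means of HSPA8 from the related lists. From each related list, up to 3 called genes averaging 50 or more were taken by size of change. Levels per kilobase use the length of the transcript with the longest coding sequence in GENCODE 29. Seed matches were searched in 1 transcript per gene, taken by APPRIS tag, basic set and 3' UTR length. Promoters are RefSeq's. Protein sequences were not used here. Tables and plots were made with Python 3.11.15, pandas 2.3.3, numpy 2.4.6 and matplotlib 3.10.9.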

Additional observations from a re-analysis of the deposited data

How the results depend on the processing

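Of the 27 ER genes that fell, 18 passed in all 14 alternatives, HSP90B1, PDIA3, CALR, CANX and HYOU1 among them, and 9 missed the threshold in at least 1, HSPA5, SIL1, P4HB, PPIB, SERPINH1, XBP1, HERPUD1, SYVN1 and EDEM1. Leaving out libraries gave 21 to 27 falls and 0 rises, with a median log2 fold change from -0.35 to -0.27. It gave 1873 to 2368 falls and 1230 to 1623 rises over all genes, and 20 to 25 falls and 3 to 6 rises among the 115 related genes. The replicate block added DNAJB9, DNAJB11, ERN1 and DDIT3 to the ER genes that fell, changed no other call of theirs, and gave 37 falls among the related genes, against 23 without it. Rescaling to equal sums gave 1546 falls and 3868 rises over all genes, 15 falls and 15 rises among the related genes, and a median of -0.18 for the ER genes with 1 rise (FKBP14). This rescaling multiplies each library by 1 constant, so it shifted all genes nearly alike, and the median of all genes moved up by 0.13. The distance between the medians could therefore not change much, and it says nothing about robustness. Under equal sums, estimates that had not passed turned above 0, to 0.01 for SDF2L1 and VCP, 0.02 for ATF6B, 0.03 for ERP29, 0.05 for ERP44, DERL2 and OS9, and 0.06 for EDEM2. Quantile normalization gave a median of -0.23 and 12 rises among the related genes, and turned P4HB to 0.04, VCP to 0.05, ERP29 to 0.07 and OS9 to 0.09. Without an intensity trend 3 related genes rose. With libraries left out, estimates ranged from -0.23 to 0.12 for SDF2L1, -0.52 to 1.19 for TXNDC5, -0.03 to 0.08 for ATF6 and -0.38 to 0.01 for DERL3. Beyond the common shift under equal sums, the cause of these changes was not tested. Read depth is unknown, and genes near the minimum mean (DERL3, TXNDC5) carry the widest intervals.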
